A study of Arabidopsis thaliana with 12 samples.

Results

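STP13 (At5g26340) encodes a sugar transport protein of Arabidopsis thaliana. It is measured by 1 of the 22746 probe sets of the ATH1 array that were analysed. The probe set was not named in the annotation of the array. Its link to the gene came from the study's lists of raised genes, where locus and probe set stand with the same fold and rate of false predictions in all 3 mutants. The gene was chosen by its measured difference from wild type, which was a rise in each of the cuticle mutants. Its values against wild type are therefore given as a description, with no test. Beside it were set the 1 other probe set whose gene carries an STP symbol, STP4, and the probe sets of 4 further loci that were listed as members of the family but that the annotation tables give only by locus. The list of the family held 14 loci. Those without a named probe set could not be looked at, so the loci shown are only a part of the family.

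RNA came from young rosette leaves with a length between 2 mm and 1 cm, of plants grown on soil for 5.5 weeks in short days of 8 h light at 20 °C and 16 h dark at 18 °C. The 4 genotypes were wild type Columbia-0 and the mutants bdg (allele bdg-2, a deletion of 7 bp), fdh (fdh-3940, also written fdh-3940S1, an insertion of 2 bp) and lcr (lcr-3P77, an insertion of 1169 bp upstream of the coding region), each represented by 1 line. Each genotype had 3 arrays, and each array held RNA pooled from 15 plants, so that variation between single plants was not measured. BDG, FDH and LCR are genes of epidermal lipid metabolism: FDH encodes an enzyme of the fatty acid elongase type, LCR a cytochrome P450 that hydroxylates fatty acids, and BDG an extracellular protein of the hydrolase fold. Loss of any of them disturbs the cuticle and lets leaves fuse. All comparisons with wild type share the same 3 wild-type arrays.

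Sugar transport proteins of the STP family sit in the plasma membrane and carry hexoses together with protons from the cell wall space into the cell. STP13 takes up glucose and other hexoses with high affinity, and its transcript is known to rise under abiotic stress, in attack by pathogens and in programmed cell death. Sucrose that reaches the cell wall space is split there by cell wall invertase, which supplies the hexoses that STP proteins take up, whereas SWEET proteins let sugars pass along their gradient without protons.

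Values are log2 expression values as normalized by GCRMA. For a value near the floor of the array, the median of all probe sets on an array is a guide: it lay between 4.56 and 4.70 on the 12 arrays, and a value below 4.56 is not shown to be above background. RCA, the Rubisco activase gene and the only one of 7 leaf markers with a named probe set, had a log2 value of 14.11 to 14.30 in the mean of each genotype. FMA, a gene of the guard cell lineage and the only one of 5 epidermis markers, lay between 5.57 and 5.87. Of 4 senescence markers, SAG13 and SEN1 had a name, which came from the study's table of raised genes. No named probe set was found for the 2 phloem markers or the 5 root and flower markers. On 2 arrays, wild type 2 and bdg 1, the 3′ probe set of GAPDH exceeded the 5′ one by 3.38 and 3.17 on the log2 scale, against 1.32 to 2.44 on the other 10 arrays.

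STP13 had log2 values of 1.93, 2.79 and 3.06 on the wild-type arrays (2.59 ± 0.59, SD, n = 3). In bdg the values were 4.71, 6.26 and 5.29 (5.42 ± 0.78, n = 3). In lcr they were 6.39, 6.65 and 6.33 (6.45 ± 0.17, n = 3). In fdh they were 7.93, 7.85 and 8.29 (8.02 ± 0.23, n = 3). All 3 wild-type arrays lay below the array medians and all 9 mutant arrays above them. This held for 33 of all probe sets (0.145%). The genotypes did not overlap in STP13, and their order was wild type, bdg, lcr and fdh. Between the highest array of one genotype and the lowest of the next, the gap was 1.65 from wild type to bdg, 0.0724 from bdg to lcr and 1.21 from lcr to fdh. The gap between bdg and lcr is small against the spread within bdg, where the array bdg 2 came close to the lcr arrays.

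**Figure D1:**
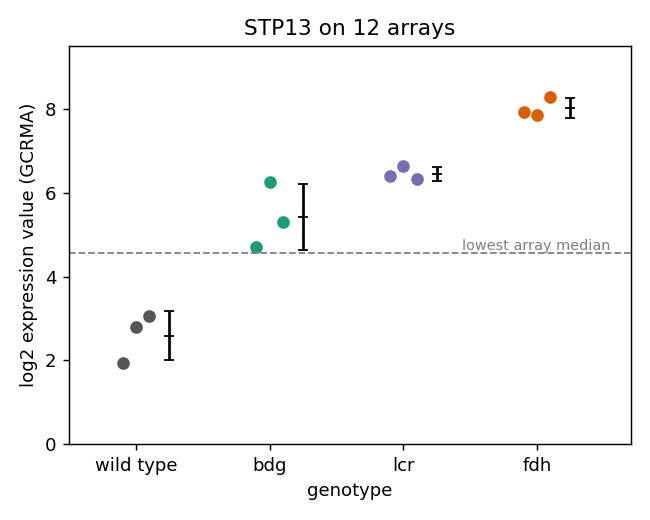
Log2 expression value of STP13 (vertical axis) on the 3 arrays of each genotype (points), with the mean and SD beside them (black). The dashed line is the lowest array median, 4.56. The wild-type arrays lie under the line and the mutant arrays over it, from 4.71 in bdg to 8.29 in fdh.

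The mean of STP13 exceeded that of wild type by 2.83 in bdg, 3.86 in lcr and 5.43 in fdh on the log2 scale, or 7.10-fold, 14.5-fold and 43.1-fold. Over all probe sets, 36 had a larger difference from wild type in bdg, 22 in lcr and 7 in fdh. These folds and ranks have a wild-type value that is not shown to be above background as their base. With each value under 4.56 set to 4.56, the differences were 0.86 in bdg, 1.90 in lcr and 3.46 in fdh, and 257, 121 and 22 probe sets had a larger one. In leaf RNA, more cells that express the gene and more RNA per cell cannot be told apart.

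Between the mutants, STP13 was higher in fdh than in bdg. The difference was 2.60 on the log2 scale (SE 0.39, 95% interval 1.71 to 3.49), or 6.08-fold, with a limma adjusted p of 0.0294 over all probe sets. Of all probe sets, 0.761% passed between fdh and bdg. With the replicate number as a block the adjusted p was 0.0247, and 1.48% of all probe sets passed. The array bdg 1, one of those with the wide GAPDH difference, was the lowest mutant array for STP13, and without it and wild type 2 the difference was 2.25 (limma adjusted p = 0.0897). The call also ended without bdg replicate 1 alone (2.25, adjusted p = 0.0827), bdg replicate 3 (2.54, 0.0911), fdh replicate 1 (2.65, 0.113) or fdh replicate 2 (2.69, 0.0882), and in a model of fdh and bdg alone (0.13). The 3 fdh arrays lay above the 3 bdg arrays in every case. The rise in each mutant was known when the gene was chosen, so that the contrasts between mutants are not independent of the choice.

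Against lcr, STP13 in fdh was higher by 1.57 (95% interval 0.68 to 2.46), or 2.97-fold, with a limma p of 0.0032 before and 0.254 after adjustment. Of all probe sets, 0.0879% passed between these mutants, and 0.0484% with the replicate block. Between lcr and bdg the difference was 1.03 (95% interval 0.14 to 1.93), or 2.05-fold, with a limma p of 0.0274 before and 1.00 after adjustment, and 1 probe set of all (0.0044%) passed. In the order of the levels, then, neither bdg and lcr nor lcr and fdh differed by the adjusted test, although the intervals of both differences lay above 0.

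**Figure D2:**
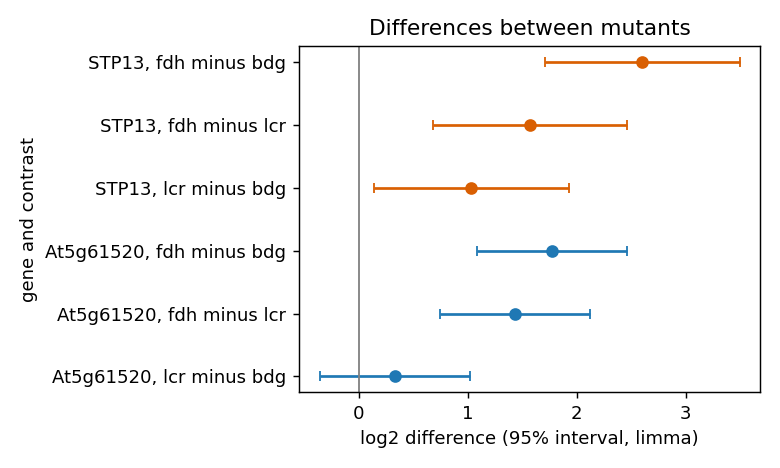
Differences between mutants in STP13 and At5g61520 on the log2 scale (horizontal axis), each with its 95% interval from limma over 12 arrays. The interval of STP13 for fdh minus bdg runs from 1.71 to 3.49, and that of At5g61520 for lcr minus bdg includes 0.

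Complete separation of all 4 genotypes was rare. In the order wild type, bdg, lcr and fdh it was found for 6 probe sets (0.0264%), and in any order for 13. Beside STP13 the 6 were BCB (At5g20230), a gene for a blue copper-binding protein, At1g64380, a gene for a transcription factor with an AP2 domain, At5g35735, At3g13910 and At5g22270. These 5 had wild-type means above the array medians, unlike STP13.

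STP4 (At3g19930) encodes another hexose transporter of the plasma membrane, known to rise on wounding and pathogen attack. Its name came from the study's table of raised genes, so that its values are a description as well. The log2 values were 7.15, 7.86 and 6.50 in wild type, 8.48, 7.91 and 7.84 in bdg, 9.08, 8.94 and 8.32 in lcr and 10.23, 10.07 and 8.24 in fdh. STP4 was thus above the array medians in wild type, where STP13 was below them. The means exceeded that of wild type by 0.91 in bdg, 1.61 in lcr and 2.34 in fdh, or 1.88-fold, 3.06-fold and 5.08-fold. The order of the means was that of STP13, but the arrays of the mutants overlapped: fdh 3 lay below all lcr arrays, where STP13 had its highest value on fdh 3. Over the 12 arrays the 2 transcripts correlated at r = 0.768, and their deviations from the genotype means at -0.347. Over the 9 mutant arrays alone the values were 0.565 and -0.406. Values of one array share its RNA and hybridization.

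Of the 4 further STP loci, At5g61520 was the one that passed the test in any mutant. Its log2 values were 3.94, 4.23 and 4.39 in wild type, 4.35, 4.27 and 4.34 in bdg, 4.24, 4.38 and 5.35 in lcr and 6.48, 6.19 and 5.60 in fdh. The fdh arrays lay above all others, and the remaining arrays, with lcr 3 as the exception, lay under 4.56. In fdh it rose by 1.90 over wild type (SE 0.30), or 3.74-fold (limma adjusted p = 0.0186), which made 1 of 4 called where 2.17% of all probe sets were called (3.72% with the replicate block, where the adjusted p of At5g61520 was 0.0339). The 3 wild-type arrays lay below the array medians. With values under 4.56 set to 4.56 the difference was 1.53. In bdg and lcr the differences were 0.13 and 0.47 (limma adjusted p = 1 and 0.905), and 0 of the 4 loci were called, at 0.11% and 0.4% of all probe sets. With Rank Product, the study's test, 0 of 4 were called in each mutant. At5g61520 came to a rate of false predictions of 0.0515 in fdh, just past the limit of 0.05, and to 0.046 with the replicate block, which called it. The share that Rank Product called of all probe sets was 0.55% in bdg, 1.89% in fdh and 1.13% in lcr.

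The limma call of At5g61520 in fdh ended when any of 4 arrays was left out: wild type 1 (difference 1.78, adjusted p = 0.0681), wild type 2 (1.93, 0.0553), fdh 1 (1.71, 0.0818) and fdh 2 (1.85, 0.0761). It also ended in a model of wild type and fdh alone (0.0902). Its direct difference between fdh and bdg was 1.77 (95% interval 1.08 to 2.46, limma adjusted p = 0.0411). That call ended with the replicate block (adjusted p = 0.0577), without any single wild-type array (adjusted p = 0.0611, 0.0602 and 0.0579 without replicates 1, 2 and 3), without any single bdg array (0.116, 0.113 and 0.111) and without fdh replicate 1 (0.175) or fdh replicate 2 (0.145). Between fdh and lcr the difference was 1.44 (95% interval 0.75 to 2.13, limma adjusted p = 0.155). As for STP13, the level was highest in fdh, but bdg and lcr did not stand apart from wild type as they did in STP13.

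The other 3 loci were flat. At1g34580 lay between 2.16 and 2.19 on the 12 arrays, At5g26250 between 1.99 and 2.05 and At3g19940 between 1.85 and 1.95, all below the array medians. At5g26250 stands 10 coding genes from STP13 on chromosome 5 in the RefSeq annotation of TAIR10.1, and its means in the mutants differed from wild type by less than 0.01. The differences of these 3 loci from wild type did not pass the test in any mutant (limma adjusted p of 1.00 in each).

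**Figure D3:**
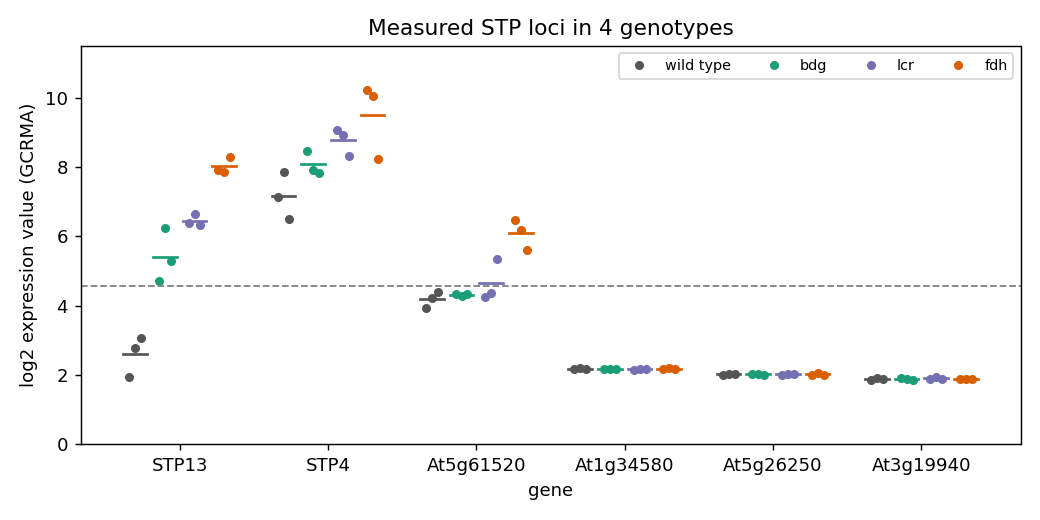
Log2 expression values (vertical axis) of STP13, STP4 and the 4 further STP loci, by genotype (colours), with each array as a point and the genotype mean as a bar. The dashed line is the lowest array median, 4.56. STP13 crosses the line between wild type and the mutants, STP4 lies over it on all arrays, and 3 loci lie under it on all arrays. Heights of different probe sets are not comparable.

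The annotated genes beside STP13 were looked at for a change of the whole region. Of the 5 coding genes on each side, 4 had a named probe set: UGT72E3 (a glucosyltransferase of phenylpropanoids), At5g26330, At5g26360 and PWD (At5g26570, an enzyme that phosphorylates starch). None of these 4 passed limma in any mutant, and 0 of them had an unadjusted p under 0.05. At5g26360 was read at 8.21 to 9.60 and PWD at 7.27 to 8.63 on the 12 arrays, whereas UGT72E3 and At5g26330 lay below the array medians.

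Genes of sugar handling and of stress were then taken as 5 lists. They were other sugar carriers (40 loci), sucrose cleavage and hexose phosphorylation (18) and sugar level markers (9). The remaining lists were cell death and defence (18) and abscisic acid and drought (15). Of all these loci, 28 had a probe set named by the array's annotation. Of these, 12 lay below the array medians on all arrays. The limma test called 0 of the 28 in each mutant, at 0.11% of all probe sets called in bdg, 2.17% in fdh and 0.4% in lcr. At an unadjusted p under 0.05 it found 1 for bdg, 5 for fdh and 2 for lcr, where it found 961, 3390 and 1799 of all 22746 probe sets. The median log2 difference of the 28 from wild type was -0.0027 for bdg, 0.0010 for fdh and -0.0037 for lcr, and that of all probe sets was -0.0067, -0.0052 and 0.0044. Rank Product called 1 of the 28 in fdh, COR15A, and 1 in lcr, COR47, both higher and both genes that cold and drought induce, where it called 1.89% of all probe sets in fdh and 1.13% in lcr. With the replicate block limma called 1 of the 28 in fdh, BIK1, a receptor-like cytoplasmic kinase gene of defence, at 1.93 above wild type (adjusted p = 0.0178). BIK1 stood 1.54 above wild type in bdg and 1.71 in lcr, where limma did not call it.

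The 20 other sugar carriers among them were members of the SWEET family, tonoplast carriers and polyol carriers. Their differences from wild type reached from -0.83 to 1.80 in fdh, from -0.52 to 0.87 in lcr and from -0.68 to 0.64 in bdg. The member at the top of the range in fdh was SWEET13 (At5g50800), a sucrose carrier of the leaf that was singled out here after its values were seen. The log2 values of SWEET13 were 5.93, 5.14 and 4.92 in fdh, against 3.08, 3.45 and 4.05 in wild type, 3.44, 3.02 and 3.07 in bdg and 2.98, 4.24 and 2.97 in lcr. The fdh arrays lay above all others, as in At5g61520, and the difference of 1.80 had a limma adjusted p of 0.0626. The 9 arrays of the other genotypes lay under 4.56, so that this difference has a base not shown to be above background. SWEET11 (At3g48740), another sucrose carrier of the leaf, had means of 8.22 in wild type, 7.54 in bdg, 8.02 in lcr and 8.22 in fdh, and TMT1 and TMT2, which load sugars into the vacuole, differed from wild type in fdh by 0.57 and -0.78.

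For 16 further members of the 5 lists, the name came only from the study's table of raised genes. They had been chosen for a rise, so their direction is no result and they were given no test. The study called more genes raised in fdh than in lcr, and fewest in bdg, so the choice also shapes the order of the mutants. The values of the 16 are therefore a description beside STP13. In 11 of the 16 the mean was highest in fdh and in 5 in lcr. Their median difference from wild type was 1.10 in bdg, 1.71 in lcr and 2.80 in fdh.

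Among these 16, the genes closest to the path of hexoses were ATBFRUCT1 (At3g13790), the cell wall invertase, and SUS1, a sucrose synthase. ATBFRUCT1 had log2 values of 8.04, 7.91 and 6.64 in wild type, 9.11, 8.87 and 9.15 in bdg, 9.57, 8.37 and 9.01 in lcr and 10.01, 9.65 and 9.16 in fdh. Every mutant array lay above the wild-type arrays, and the mutants overlapped each other, where STP13 did not. SUS1 had means of 5.63 in wild type, 7.24 in bdg, 7.68 in lcr and 7.56 in fdh. PMT6 (At4g36670), a polyol and monosaccharide carrier, had means of 4.69 ± 0.51 in wild type, 5.20 ± 0.76 in bdg, 7.17 ± 0.32 in lcr and 8.03 ± 1.03 in fdh (SD, n = 3), so that bdg stood near wild type.

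Of the genes that respond to lack of sugar or to darkness, ASN1 and SEN1 had no higher mean in bdg than in wild type, whereas DIN10 had. ASN1, an asparagine synthetase gene also known as DIN6, had means of 7.43 in wild type, 6.86 in bdg, 8.61 in lcr and 9.71 in fdh, with all bdg arrays below 7.64, the middle wild-type value. SEN1 had means of 4.36 in wild type, 4.35 in bdg, 6.18 in lcr and 6.66 in fdh. DIN10 had 5.99, 7.52, 8.74 and 8.55 in the same order, with 3.33 on wild type 3 against 7.45 and 7.20 on the other wild-type arrays. Differences from wild type in bdg were thus -0.57 for ASN1, -0.02 for SEN1 and 1.53 for DIN10. The list of sugar level markers also held BAM5 and APL3. BAM5 differed from wild type by 1.57 in bdg, 1.54 in lcr and 1.65 in fdh. Its value on wild type 3 was 9.07, above every mutant array. APL3 differed by -0.21 in bdg, -0.13 in lcr and 1.42 in fdh, and limma called it in no mutant (adjusted p = 0.458 in fdh).

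Of the genes of cell death and defence, SAG13 (At2g29350), a marker of senescence, had means of 2.95 in wild type, 4.82 in bdg, 4.56 in lcr and 6.17 in fdh. On 7 arrays, all 3 wild-type ones among them, it lay below 4.56. SAG13 correlated with STP13 at 0.867 over the 12 arrays and at 0.621 over the 9 mutant arrays. In deviations from the genotype means these values were 0.253 and -0.224. PAD3, an enzyme gene of camalexin synthesis, was near wild type in bdg and lcr, with differences of 0.04 and 0.33, and stood 3.32 above it in fdh. The 9 arrays of wild type, bdg and lcr lay under 4.56 for PAD3, so that its differences have a base not shown to be above background. WRKY40, a transcription factor gene, differed from wild type by 0.44 in bdg, 2.60 in lcr and 3.77 in fdh. Its wild-type values were 4.57, 7.26 and 4.76, the high one on wild type 2, an array with the wide GAPDH difference. The bdg values of WRKY40, 5.57, 5.80 and 6.54, lay above wild type 1 and 3 and below wild type 2. Of the genes of abscisic acid and drought, NAC019 and RD26, which encode NAC transcription factors, stood 2.68 and 2.83 above wild type in bdg, 3.83 and 3.73 in lcr and 3.63 and 3.04 in fdh. For each of these genes 2 of the 3 wild-type arrays lay under 4.56. Their differences therefore have a base mostly not shown to be above background. NAC019 and RD26 correlated with STP13 at 0.865 and 0.844 over the 12 arrays, but at 0.570 and 0.258 over the 9 mutant arrays. In deviations from the genotype means these 2 correlated with STP13 at 0.843 and 0.752 (0.840 and 0.689 over the 9 mutant arrays). On the array bdg 2, the highest bdg array for STP13, they had their highest bdg values as well, 7.84 and 7.93.

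The probe sets most like STP13 were sought among the 2273 whose genotype means spanned at least 1 on the log2 scale, of which 1359 had a name. Pearson's r over the 12 arrays was above 0.9 for 41 of them. Since it mostly follows the genotype means, it was set beside the correlation of the deviations from those means, with no test of either. Both describe arrays that share their RNA across genes. The wild-type values of STP13, all below the array medians, enter both, so each is given over the 9 mutant arrays as well.

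PMAT1 (At5g39050), a malonyltransferase of phenolic glucosides, came first, with r = 0.989, and the next probe set had 0.968. Its log2 values were 3.29, 4.07 and 4.62 in wild type, 5.46, 6.62 and 5.69 in bdg, 6.26, 6.78 and 6.63 in lcr and 7.50, 7.41 and 7.39 in fdh. The bdg arrays had the same order in PMAT1 and in STP13, from bdg 1 over bdg 3 to bdg 2, and lcr 2 was the highest lcr array in both, whereas fdh 3 was the highest fdh array in STP13 and the lowest in PMAT1. In deviations from the genotype means PMAT1 was again first, with r = 0.907 against 0.861 for the next probe set. It was first as well without any single array (r from 0.987 to 0.991) and had rank 4 by Spearman's rho (0.958). Over the 9 mutant arrays r was 0.973, at rank 2, and r of the deviations was 0.876, at rank 10. Its differences from wild type were 1.93 in bdg, 2.56 in lcr and 3.44 in fdh, and with values under 4.56 set to 4.56 they were 1.34, 1.97 and 2.85, against 0.86, 1.90 and 3.46 for STP13. PMAT1 was named through the study's table of raised genes.

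**Figure D4:**
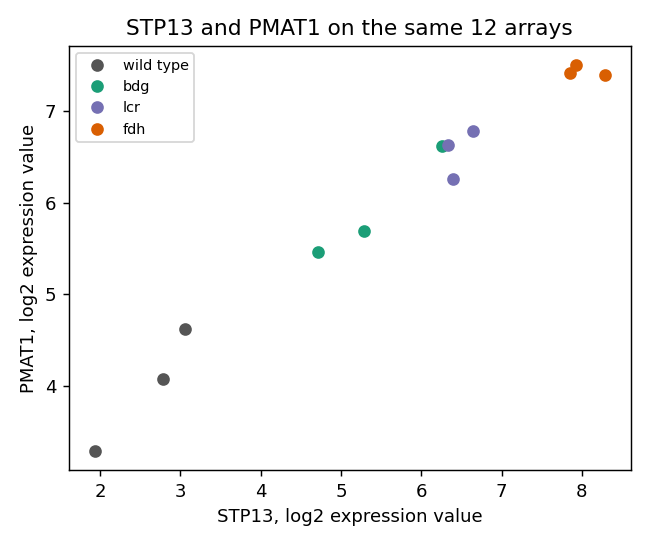
Log2 expression value of PMAT1 (vertical axis) against that of STP13 (horizontal axis) on the same 12 arrays, coloured by genotype. The points follow one line (r = 0.989), from wild type 1 at 1.93 and 3.29 to the fdh arrays, where PMAT1 stays at 7.39 to 7.50.

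The other 9 were At1g64380 (r = 0.968), At4g39670, a gene for a glycolipid transporter (0.946), BCB (0.945), At5g37740 (0.943), At4g33540 (0.937), At2g04570, a gene of the GDSL lipase family (0.936), At5g35735 (0.935), At4g01870 (0.933) and At3g13910 (0.932). A further 5 probe sets without a name lay ahead of the tenth. All 10 were highest in fdh and had their means in the order wild type, bdg, lcr and fdh, an order that their choice by r to STP13 favours. Over the 9 mutant arrays alone, r of these 9 was 0.807 to 0.940, and 2 of the 10 were again among the first 10 named. At4g39670 had differences from wild type of 2.40 in bdg, 3.87 in lcr and 5.03 in fdh, from a wild-type mean of 2.88 ± 0.40 (SD, n = 3) that was below the array medians as in STP13. BCB, which RefSeq lists also as senescence-associated gene 14, had log2 values of 7.39, 9.06 and 7.57 in wild type, 10.21, 10.23 and 10.27 in bdg, 11.58, 11.65 and 11.03 in lcr and 12.39, 12.20 and 11.69 in fdh. It thus had the order of STP13 at a level above the array medians in wild type, with a difference of 0.67 from lcr to fdh against 1.57 in STP13. Within genotypes these 9 followed STP13 less than PMAT1 did, with r of the deviations over the 12 arrays from -0.0983 for At5g35735 to 0.639 for At4g01870. Over the 9 mutant arrays it ran from -0.121 for At5g35735 to 0.827 for At4g33540, which came close to the 0.876 of PMAT1.

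**Figure D5:**
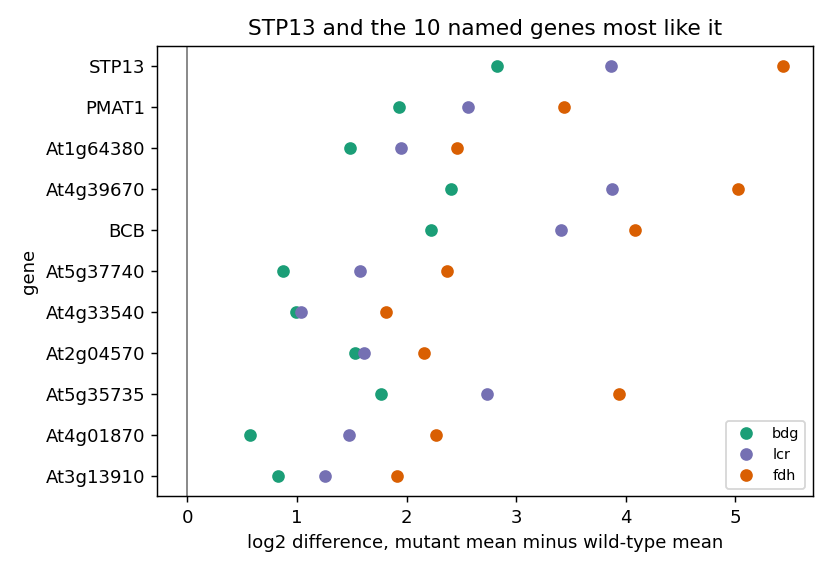
Difference of each mutant's mean from the wild-type mean on the log2 scale (horizontal axis) for STP13 and the 10 named genes most like it by Pearson's r (rows, from the highest r). The order bdg, lcr, fdh holds in each row, which the choice by r favours, and the differences of STP13 are 2.83, 3.86 and 5.43.

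At the other end, the 5 named genes least like STP13 were At4g25150 (r = -0.901), At1g66250 (-0.887), At1g80280 (-0.885), At5g43020 (-0.884) and At3g51950 (-0.884). All were lowest in fdh, which a choice by the lowest r favours. At1g80280 had means of 6.60 ± 0.98 in wild type, 5.96 ± 0.17 in bdg, 5.38 ± 0.12 in lcr and 4.06 ± 0.29 in fdh (SD, n = 3). At4g25150 lay below the array medians on all 12 arrays.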

How the data were processed

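The authors deposited log2 values per probe set, normalized with GCRMA (its version is not given in the sources used here), for 12 ATH1 arrays, 3 for each of 4 genotypes. Of 22810 probe sets, 64 controls were left out. The array's annotation named 13513 with 1 gene each. The study's table of raised genes named 235 more, STP13 among them, which favours genes that rose. It lists loci and probe sets apart, and they were joined where 1 locus and 1 probe set carry the same fold and rate of false predictions. These columns of the study's own comparisons served for that match alone.

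A model of 4 genotypes was fitted in limma 3.58.1 (R 4.3.3, 8 residual degrees of freedom), with Benjamini-Hochberg adjustment over 22746 probe sets and a limit of 0.05. Rank Product was rewritten with 9 array ratios, 100 permutations and a limit of 0.05 on its rate of false predictions. Both were tested on simulated data. The limma model had no replicate term, so its p values take no account of a pairing by replicate number. Deviations from genotype means were correlated between same-number arrays. Every such correlation was above 0.1 for wild type with fdh (0.142 to 0.475) and bdg with fdh (0.113 to 0.367). The same held for bdg with lcr (0.35 to 0.651) and fdh with lcr (0.234 to 0.619). It did not hold for wild type with bdg (-0.356 to 0.725) or lcr (0.0214 to 0.675). The replicate block was an alternative only and was applied to every comparison, those of wild type with bdg and lcr included. A fit that paired only the genotypes above 0.1 was not made. Only 7 of the 12 arrays were most like the arrays of their own number. The labels do not say that a number marks a harvest round. Correlations over arrays carry no p. Alternatives covered normalization, low values, the variance prior, the samples fitted, a replicate block and leaving out arrays. Named were all STP loci with a named probe set, list members and neighbours that passed limma, and the 10 genes most and 5 least like STP13. Other list members were named after their values were seen. Members and lists were chosen with earlier results of these data known.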

Additional observations from a re-analysis of the deposited data

Results flagged for a closer look

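The rise of STP13 over wild type was larger in fdh than in bdg, by 2.60 on the log2 scale, and this difference between the mutants passed limma (adjusted p = 0.0294). The rise of At5g61520 over wild type was also larger in fdh than in bdg, by 1.77 (limma adjusted p = 0.0411). Each of these differences equals the direct contrast of fdh with bdg, since both rises are taken from the same wild-type arrays, and in both genes all 3 fdh arrays lay above all 3 bdg arrays. STP13 was chosen by its rises over wild type, so its p is not independent of the choice, and the call ended under 6 alternatives (adjusted p = 0.0827 to 0.13). The call of At5g61520 ended with the replicate block (adjusted p = 0.0577) and without most single arrays (up to 0.175).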

How the results depend on the processing

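Of 331 values recomputed under alternatives, 282 were kept, 23 lost a call, 26 moved and 0 turned their direction. A limma contrast was kept if its direction and its side of the threshold stayed. A difference of STP13 from wild type was kept if it shifted by less than the pooled SD, and a count if it stayed similar. Many of the counts were 0 in all settings. With values under the lowest array median set to it, an alternative chosen after seeing the data, the differences of STP13 from wild type were 0.860 in bdg, 3.46 in fdh and 1.90 in lcr. Without single replicates they were 2.41 to 3.18, 5.10 to 5.66 and 3.53 to 4.10. STP13 between fdh and bdg was 2.25 to 3.02 without single replicates (limma adjusted p = 0.0244 to 0.113). It was 2.60 with only the groups compared (adjusted p = 0.13) and 2.25 without the arrays wild type 2 and bdg 1 (0.0897), both past the limit. Between fdh and lcr it was 1.44 to 1.66 and between lcr and bdg 0.68 to 1.45. The count of further STP loci that limma called in fdh was 0 to 1 without single replicates, 0 with only the groups compared and 0 without wild type 2 and bdg 1. The count of list members that limma called in fdh was 1 with the trend in the variance (SWEET13), 2 when probe sets had to exceed 5 on 3 or more arrays (COR47 and BIK1) and 0 to 2 without single replicates (1 without bdg 1, COR47; 2 without fdh 3, TMT2 and BIK1; 1 without lcr 2, SWEET13). Of the 10 genes most like STP13, 5 stayed by Spearman's rho, 1 by deviations from the genotype means, 2 over the 9 mutant arrays alone (chosen after seeing the data) and 5 to 9 without single replicates. The cause of these changes was not tested.

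Deviations of same-numbered arrays correlated above 0.1 in every pair between wild type and fdh and between the mutants, but not between wild type and bdg or lcr. Some arrays with different numbers correlated as much or more, such as fdh 1 with lcr 2 (0.374) against fdh 1 with lcr 1 (0.234). The highest correlation between arrays of different genotypes was that of wild type 2 with bdg 1 (0.740), above the highest of a same-number pair (0.725). These are the 2 arrays with the wide GAPDH difference, and a link with it was not tested. In all, 7 of the 12 arrays were most like the arrays of their own number. With the replicate number as a block, limma called 583 probe sets higher and 264 lower in fdh (349 and 144 without), 28 and 6 in bdg (21 and 4) and 125 and 27 in lcr (77 and 14). The block gave 1 list member called in fdh (BIK1) and 1 further STP locus by Rank Product in fdh (At5g61520, rate of false predictions 0.046), and it ended the limma call of At5g61520 between fdh and bdg (adjusted p = 0.0577). It changed no other call of the genes and lists reported. Centring each array on its median shifted the median of all probe sets by -0.112 in fdh and -0.12 in lcr, and limma then called 327 higher and 306 lower in fdh and 67 and 34 in lcr. Between fdh and bdg it called 114 higher and 59 lower as deposited and 114 and 117 after centring. The 3 arrays per genotype limit the precision, and values under the array medians carry no order.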
